A study of Mus musculus with 10 samples.

Results

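The 8 genes described here encode parts of the route from growth factor receptors through PI3K and AKT to the FOXO transcription factors. They are Irs1 and Irs2 (insulin receptor substrates), Pdpk1, Akt1 and Akt2 (kinases) and Foxo1, Foxo3 and Foxo4 (transcription factors). Their probes were taken as all non-control probes whose gene name in the scanner files equals one of these symbols. This gave 18 of the 55681 probes on the array, on 19 spots, and 8 of the 34821 gene names. For 15 of the 18 probes the accession is listed in RefSeq for GRCm38.p6, each under the same symbol.

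RNA was measured on 10 one-color Agilent mouse arrays, 1 per sample, with Cy3 as the dye. Germline stem (GS) cells, a culture of mouse spermatogonia, were wild type and were deprived of FGF2 and GDNF for 3 days, then kept for 24 hr with 100 ng/mL FGF5 (2 arrays) or without it (2 arrays). The labels give their strain as C57BL/6, while the study's methods describe a cross of C57BL/6 and ICR. GFRα1+ cells were sorted by their GFP from testes of Gfrα1-GFP knock-in mice of 2.5 months on a C57BL/6 background, which were WT (3 arrays) or Fgf5-/- (3 arrays). The GFP is driven from the Gfrα1 locus, so the gate rests on that gene's activity, and the number of mice behind a sorted sample was not given in the sources used here. The series text describes the repeats as independent experiments, those in culture from different biological samples.

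Insulin and IGF receptors, and the receptors for GDNF and FGFs, engage PI3K through adaptor proteins. The lipid made by PI3K brings AKT to the membrane, where PDPK1 phosphorylates it, and active AKT keeps FOXO proteins out of the nucleus by phosphorylation. In the testis, FOXO1 marks and maintains undifferentiated spermatogonia, and GDNF acts on these cells in part through AKT. Much of this control acts on proteins, which arrays of RNA do not measure.

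The sequences of the probes that the results turn on are shown first, because probes of the same gene gave different results. Coordinates are those of the scanner files, in mm9. Placement of a probe in the coding sequence is background knowledge and was not computed, as no annotation of mm9 was used. The probe of Foxo1 with the highest mean signal lies at chr3:52150183-52150242 on the plus strand, in the coding sequence.
Foxo1, brightest probe: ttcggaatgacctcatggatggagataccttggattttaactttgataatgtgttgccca
The brightest probe of Foxo3, at chr10:41967288-41967347 on the minus strand, was designed on a cDNA clone, and the second probe, at chr10:41905610-41905669, on a RefSeq transcript. The probes span 61738 bases, with the brightest one upstream. Only the first 30 bases of each are given.
Foxo3, brightest probe: gtctatagccaagttttgtagagccagtgg
Foxo3, second probe: taaaagcagaaggaaggtgttatatcagtt
The only probe of Irs2 lies at chr8:11004490-11004549 on the minus strand, in the coding sequence.
Irs2: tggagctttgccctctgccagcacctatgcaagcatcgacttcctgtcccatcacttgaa
Akt2 has 4 probes on the plus strand of chromosome 7. The brightest, at chr7:28424405-28424464, shares 53 bases with the next, and the third, at chr7:28418226-28418285, lies in the coding sequence. Pdpk1 has 3 probes on the minus strand of chromosome 17. The brightest lies at chr17:24210650-24210709, and the second, at chr17:24216460-24216519, in the coding sequence. Capitals mark AATAAA, the usual polyadenylation signal, and ATTAAA, its most common variant. Of the probes that hold either, 30 bases around the match are given.
Akt2, brightest probe: tacggtacaagcAATAAAgacactcatttc
Akt2, probe in the coding sequence: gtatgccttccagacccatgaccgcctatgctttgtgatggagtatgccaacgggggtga
Pdpk1, brightest probe: cggtagtcttgtAATAAAagcatgtagagt
Pdpk1, second probe: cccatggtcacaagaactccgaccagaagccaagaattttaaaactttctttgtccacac
Irs1, brightest probe: gtagtgtcttcatcgttaATTAAAgaaaac
The strand of the probe was searched for both motifs. AATAAA was found in 3 of the 18 probes, in Pdpk1 and in the overlapping pair of Akt2, and ATTAAA in 1. Of all 55681 probes, each of the same 60 bases, 10.1% hold AATAAA and 3.95% hold ATTAAA.

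The level of a probe is given as the log2 of its background-subtracted signal minus the 75th percentile of its array. The levels of the members were compared between samples for one probe at a time, because the brightness of a probe depends on its sequence. The marker sums below add linear signals over probes and serve only as a rough check between arrays. By the scanner software's flag, 14 of the 18 had a signal well above background on all 10 arrays. The brightest probe of Foxo4 and its second probe, which share 52 bases, reached it on 9 arrays each, and the third on 2. The second probe of Irs1 reached it on 0 of 10. The other 16 were tested in every comparison, and the gene was read from its brightest probe, with the others given beside it.

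**Figure D1:**
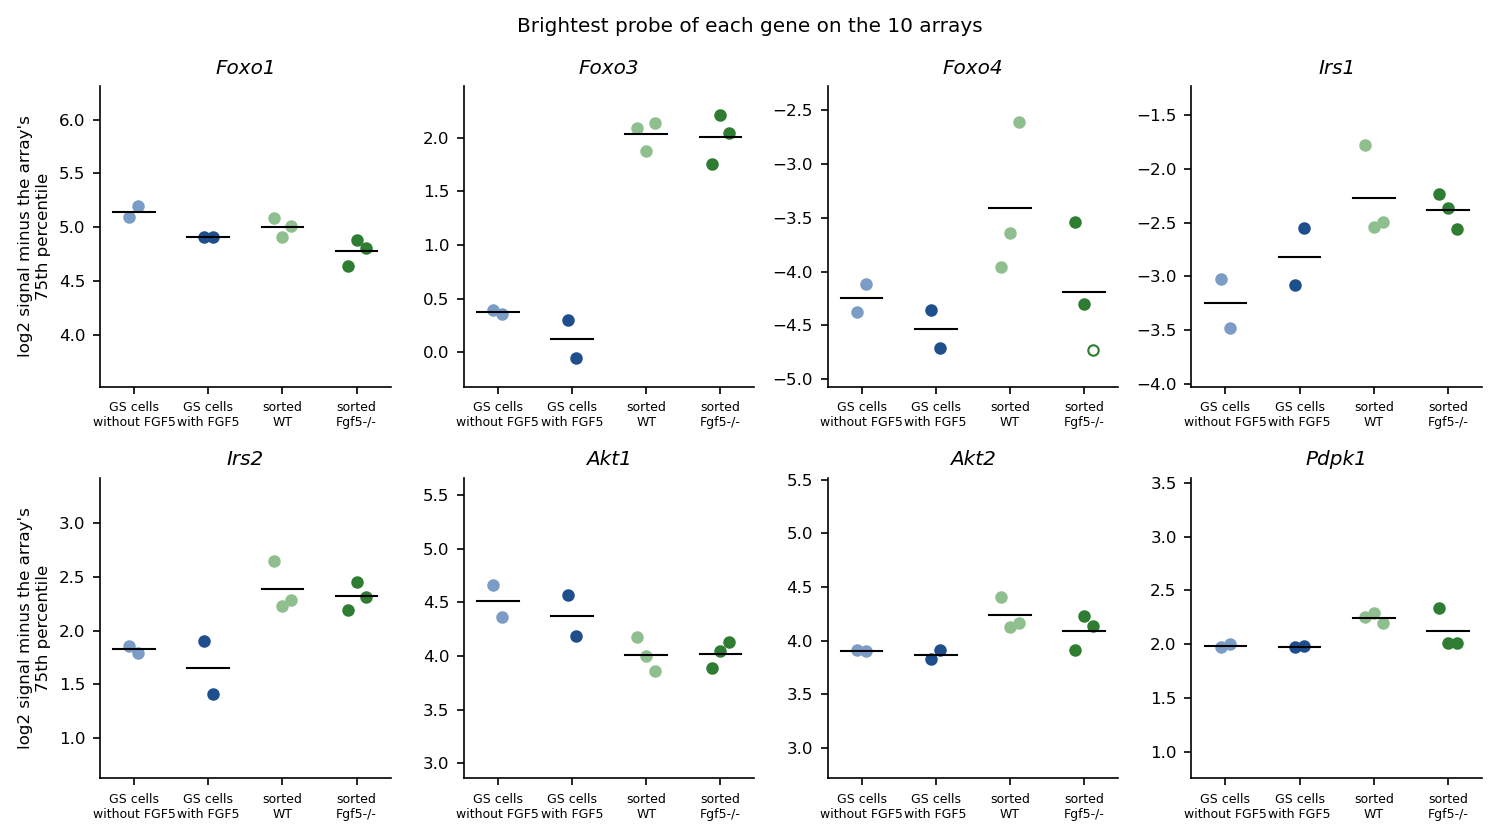
Level of the brightest probe of each gene on each array, as log2 signal minus the 75th percentile of the array. Points are arrays, filled where the probe was well above background, lines are group means, and every panel spans the same number of log2 units. Foxo3, Irs2 and, by a narrow margin, Pdpk1 lie lower on all 4 cultured arrays than on all 6 sorted ones, and Akt1 lies higher. The share of all probes separated in this way was not computed, and 67.7% of them had an adjusted p under 0.05 between the materials in limma.

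The sorted samples and GS cells were checked against markers. All 12 genes of a list for undifferentiated spermatogonia, Gfra1 and Ret included, were well above background on all 10 arrays. Their summed level, in units of the 75th percentile of the array, was 183 to 188 in GS cells and 193 to 231 in sorted cells. These sums hide changes of single genes, as 7 of the 12 were called lower in culture in limma and 2 higher, with a median of -1.13. Here and below, such counts stand against 25.7% of all tested probes called lower in culture and 41.9% called higher. All 8 genes of a list for differentiating spermatogonia were above background on every array too, with sums of 140 to 169 in culture and 176 to 207 in sorted cells, 2 called higher in culture and 3 lower. Gfra1 itself was lower in culture by 3.01 on the log2 scale (limma, adjusted p = 0.000482; lower on 4 of 4 arrays). Against WT alone, its difference was -2.31 for the cultures with FGF5 and -3.87 for those without.
Sums for markers of other cell types were lower than those for spermatogonia, and most differed between the materials. Which cells these signals came from was not tested. Sertoli markers summed to 2.22 to 2.89 in culture and to 6.51 to 11.2 in sorted cells. Of 7 tested, 4 were called lower in culture and 1, Sox9, higher. Spermatid markers summed to 1.64 to 2.17 against 5.36 to 17.1, with the highest sum in Fgf5-/- replicate 3. Spermatocyte markers gave 22.0 to 29.7 and 20.1 to 25.0, although 4 of the 6 genes were called lower in culture and 1 higher, with a median of -0.61.
Summed signals of interstitial markers were mostly higher in culture, though not every gene was. Peritubular and fibroblast markers summed to 14.8 and 16.3 in the cultures numbered 1, to 6.55 and 7.58 in those numbered 2, and to 5.05 to 6.50 in sorted cells. The gap between the cultures came from Col1a1, while Col1a2, Col3a1 and Dcn were higher in those numbered 2. Of 9 tested, 5 were called higher in culture in limma and 2 lower, Pdgfra and Pdgfrb. Endothelial markers summed to 12.9 to 21.3 against 4.80 to 6.97, with the gap between the cultures mostly from Vwf. Of the 6 genes, Vwf, Kdr and Pecam1 were called higher and Cdh5, Tek and Flt1 lower, with a median of -0.59. Macrophage markers gave 3.76 to 4.67 against 1.03 to 2.08. Of 4 tested, 3 were called higher in culture and 0 lower. Csf1r had the highest signal of them on every cultured array, while Lyz2 was well above background on 0 arrays and C1qa on 1. Leydig markers gave 5.0 to 6.66 against 0.430 to 1.97, nearly all of it from Cyp17a1. Of the Leydig list, Hsd3b1, Hsd3b6, Cyp11a1 and Lhcgr were not well above background on all arrays of any group, and Insl3 and the macrophage gene Adgre1 have no probe under these names. The part of these cell types in the results below was not tested. In such bulk samples, fewer cells of a type and less RNA per cell cannot be told apart.

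**Figure D2:**
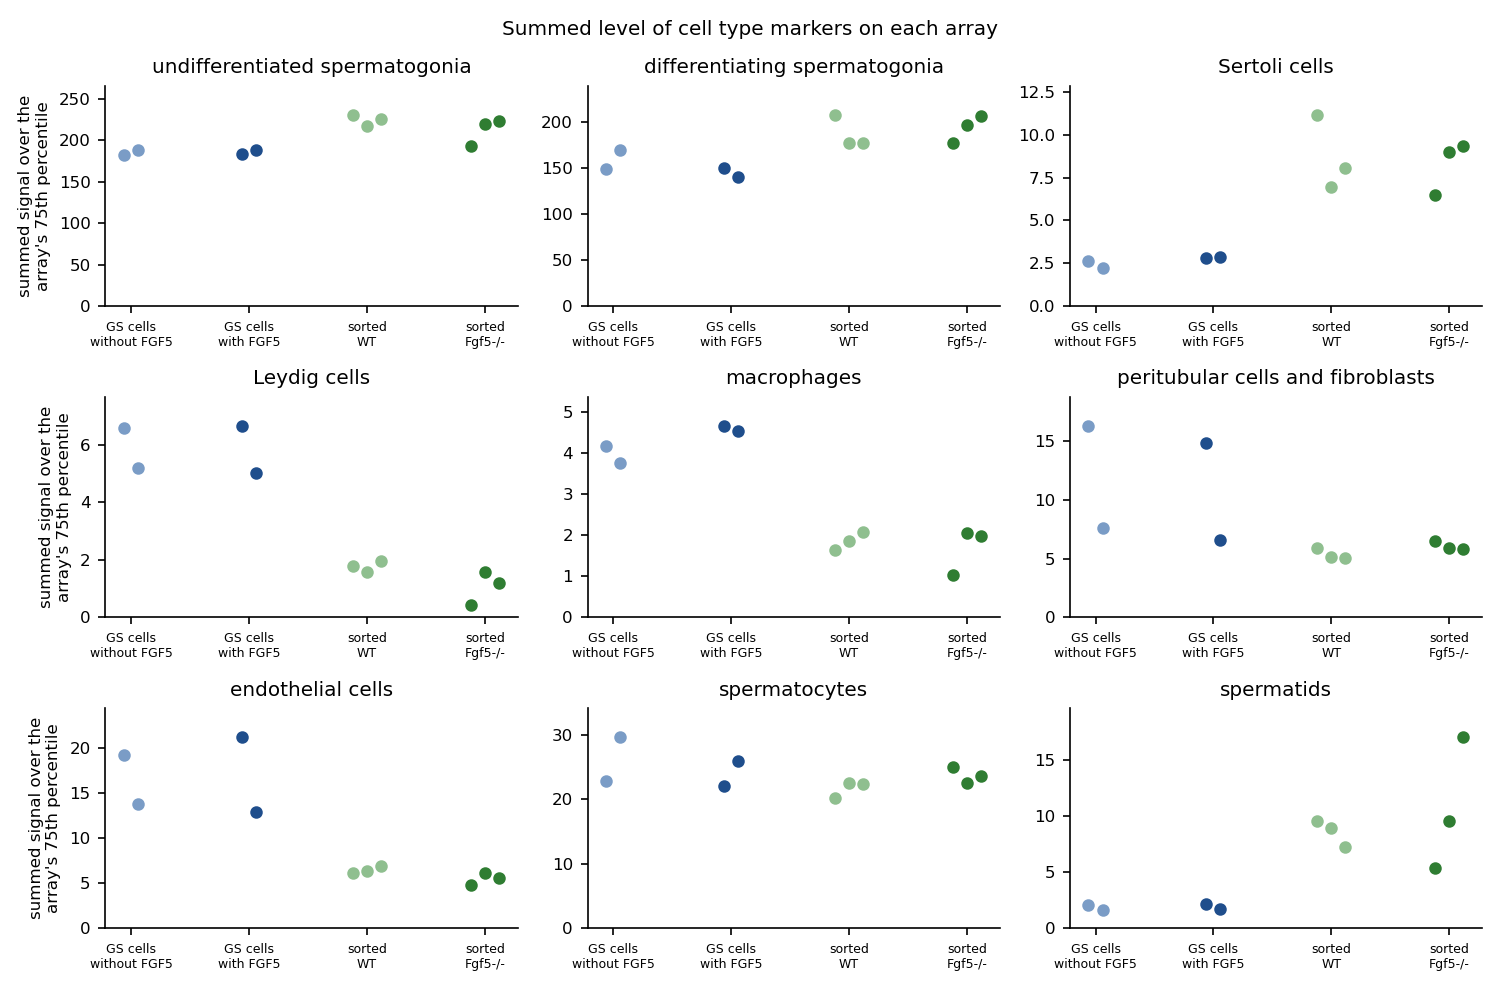
Summed linear signal of each marker list on each array, in units of the 75th percentile of that array. Points are arrays in their 4 groups. Fibroblast and endothelial sums were highest in the cultures numbered 1, mostly through Col1a1 and Vwf, and Sertoli and spermatid sums in sorted cells.

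The first comparison asks whether FGF5 altered the RNA of these genes in GS cells. No member passed: 0 of the 16 tested probes had an adjusted p under 0.05 in limma, where 0% of the 34608 tested probes did (smallest adjusted p = 0.9999). The paper reports Etv5 and Ccnd2 as raised by FGF5. Their signals were 15.2-fold and 4.01-fold higher with it, yet their adjusted p in limma was 0.9999 too. With 2 arrays per group, failing the adjustment thus cannot show that a member was unchanged. At an unadjusted p under 0.05 there were 0 of 16, against 2.55% of all. That count comes from a fit without the replicate number, which treats differences between culture numbers as noise. When the number was fitted as a block, 2481 of the 34608 probes fell under this cutoff instead of 882 (limma, smallest adjusted p = 0.196). The count and intervals of the members with the block are not given here. The largest difference among the 16 was 0.43 on the log2 scale. Of the 16 probes, 12 were lower with FGF5, with a median of -0.12, against a median of -0.03 over all tested probes. On 5 of the 16, both arrays with FGF5 lay below both without, which held for 14.5% of all probes, and on 0 of 16 above, which held for 8.18%.
Those 5 probes were both of Foxo1, both of Foxo3 and 1 of Akt2. Foxo1, the FOXO gene known for its role in undifferentiated spermatogonia, stood at 4.91 and 4.91 with FGF5 and at 5.09 and 5.19 without. The groups did not overlap, and the second probe, at 4.68 and 4.62 against 4.94 and 4.79, gave the same order. Their log2 differences were -0.23 (95% interval -0.65 to 0.18) and -0.22 (-0.64 to 0.21), adjusted p = 0.9999 in limma for each.
Foxo3 stood at 0.30 and -0.05 with FGF5 and at 0.40 and 0.35 without. The array with FGF5 numbered 2 was the lowest of the 4. The difference was -0.25 (95% interval -0.76 to 0.26), and that of its second probe -0.33 (-0.95 to 0.29). Leaving out 1 array gave -0.42 to -0.07 and -0.60 to -0.06.
Foxo4, near background, differed by -0.29 on its brightest probe and by 0.14 on the overlapping one, and the arrays overlapped on both. The former was -0.06 with normexp and with the mean of the gene's probes, and -0.47 to -0.11 when 1 array was left out.
Of the receptor substrates, Irs1 stood at -3.08 and -2.55 with FGF5 and at -3.02 and -3.48 without, a difference of 0.43 (95% interval -0.30 to 1.17) with overlapping arrays, and of 0.17 to 0.70 when 1 array was left out. Irs2 differed by -0.17 (-0.76 to 0.43), and its arrays overlapped because the one with FGF5 numbered 1 was the highest of all 4 and the one numbered 2 the lowest. Without the latter the difference was 0.08.
Among the kinases, Pdpk1 was the most even gene, at 1.97 and 1.98 with FGF5 and at 1.98 and 1.997 without. Its difference was -0.01, with an interval from -0.42 to 0.39 that leaves out a doubling or a halving. Its other probes gave 0.02 and -0.02, and the sign of the former turned under a normexp background correction. Akt1 differed by -0.14 (-0.72 to 0.45). The 4 probes of Akt2 lay between -0.13 and 0.10, in both directions.

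**Figure D3:**
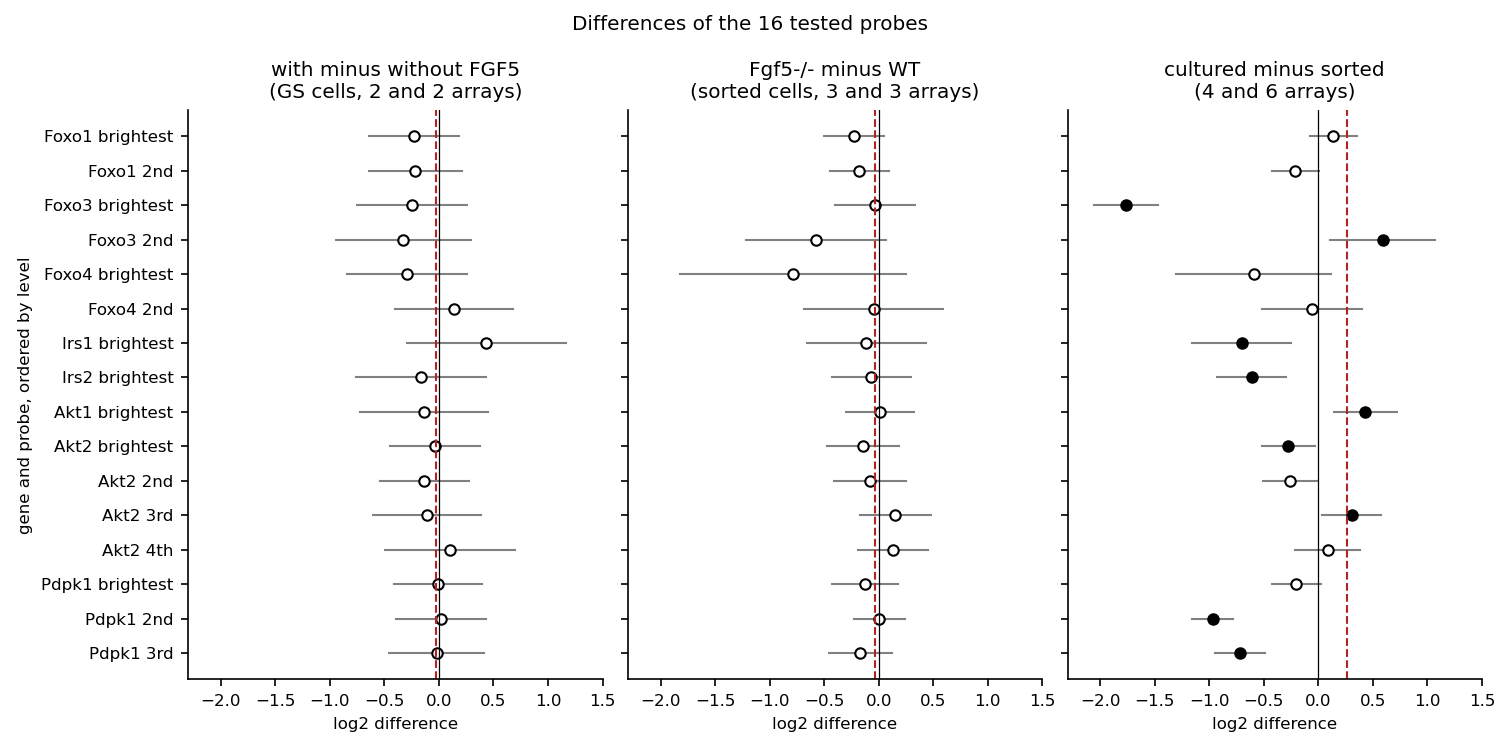
Log2 differences of the 16 tested probes in the 3 comparisons, with 95% intervals from limma. Filled points had an adjusted p under 0.05, and the dashed line is the median over all tested probes. No point is filled in the comparisons by FGF5 or by Fgf5 genotype, and 9 are filled between cultured and sorted cells.

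Among other genes of the pathway, 0 of 74 tested in GS cells passed the adjustment in limma, and 4 had an unadjusted p under 0.05. The 74 had a median of -0.06, with 30 higher and 44 lower with FGF5. By list, the medians were 0.05 for 9 PI3K subunits, -0.06 for 13 adaptors and receptors, -0.02 for 9 phosphatases and other brakes, 0.02 for 4 AKT and FOXO paralogs, -0.07 for 18 AKT substrates and mTOR genes and -0.16 for 26 FOXO targets, a list that also holds the member Irs2. The highest differences were those of Lhx1 (3.11, and 1.13 on its other probe), Trib1 (2.16), Gfra1 (1.55) and Ret (1.44). Lhx1 is a transcription factor of the GDNF response, and Trib1 a pseudokinase. A dimmer probe of Trib1 gave 0.20. The lowest were Klf2 (-0.55), the mTOR inhibitor gene Ddit4 (-0.55), Insr (-0.52) and the AKT inhibitor gene Trib3 (-0.52), and Insr was lower on all 3 of its probes. Some of these values depended on 1 array. Without the array with FGF5 numbered 2, Ddit4 turned to 0.15, Trib3 was at -0.08, Insr at -0.15, Gfra1 at 0.55, Ret at 0.89 and Trib1 at 1.35. Without the GS cell array lacking FGF5 numbered 2, Klf2 was at -0.22. Cultures of the same number deviated alike from their group means (r = 0.64), so leaving out 1 array unbalances the numbers. Gfra1 stood at -2.52 and -0.52 with FGF5 and at -4.07 and -2.09 without, for numbers 1 and 2. Within each number, Lhx1, Gfra1, Ret and Trib1 were higher with FGF5, and Ddit4, Trib3 and Klf2 lower. Insr was higher with FGF5 at number 1 and lower at number 2.
Of the 74 genes, 10 had both arrays with FGF5 above both without and 9 below, against 8.18% and 14.5% of all tested probes. Among the 10 were the catalytic subunit gene Pik3ca and the regulatory subunit gene Pik3r1. They differed by 0.34 and 0.28, though Pik3ca was at 0.09 without the array with FGF5 numbered 2. Foxo6 differed by 0.30, with overlap, and by 0.09 without that array, though it was higher with FGF5 within each culture number. Mtor was at -0.06, Tsc2 at -0.21 and Gsk3b at -0.13, with other probes of Gsk3b up to 0.14. Igf1r was at -0.28 and Pik3ip1 at -0.22. The FOXO targets Cdkn1b and Bcl2l11 differed by -0.40 and 0.02, the former by -0.07 without the array with FGF5 numbered 2.

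The second comparison asks whether the loss of Fgf5 altered these genes in GFRα1+ cells in the testis. Again 0 of the 16 probes passed in limma, where 0% of 30283 did (smallest adjusted p = 0.728). Leaving out 1 array gave 6 calls over all probes without Fgf5-/- replicate 1, 5 without Fgf5-/- replicate 3, 1 without WT replicate 2 and 1 without WT replicate 3. At an unadjusted p under 0.05 there were 0 of 16, against 6.79% of all. The median of the 16 was -0.10, with 12 of them lower in Fgf5-/-, against -0.03 over all probes. On 2 of the 16, all Fgf5-/- arrays lay below all WT arrays, against 9.2% of all probes, and on 0 above, against 7.01%.
The 2 probes were those of Foxo1. It stood at 4.64, 4.89 and 4.80 in Fgf5-/- and at 5.09, 4.91 and 5.02 in WT. The groups were separate by a narrow margin, with Fgf5-/- replicate 1 the lowest. Among sorted arrays, that replicate also had the lowest sums of undifferentiated (193), Sertoli (6.51) and spermatid markers (5.36). Its sums of fibroblast (6.50) and spermatocyte markers (25.0) and its share of probes well above background (65.9%) were the highest of them. The difference was -0.23 (95% interval -0.51 to 0.05, adjusted p = 0.744 in limma), and on the second probe -0.18 (-0.44 to 0.09). With quantile normalization these were only -0.08 and -0.02.
Foxo3 stood at 1.76, 2.21 and 2.04 in Fgf5-/- and at 2.09, 1.87 and 2.13 in WT. The ranges overlapped almost entirely, the difference was -0.03 (95% interval -0.40 to 0.33), and its sign turned under 3 of the other scalings. The second, dimmer probe stood at -2.65, -3.45 and -3.63 against -2.73, -2.45 and -2.81. Only Fgf5-/- replicate 1 was level with WT there, and the difference was -0.58 (-1.22 to 0.07, adjusted p = 0.732 in limma), or -0.87 to -0.38 when 1 array was left out and -0.25 with normexp.
The brightest probe of Foxo4 stood at -3.54, -4.30 and -4.73 in Fgf5-/-, the last not well above background, and at -3.95, -3.64 and -2.61 in WT. The mean difference of -0.79 (-1.83 to 0.25) rested largely on WT replicate 3. It was -0.39 without that array and -0.16 with the mean of the gene's probes, and the probe that shares most of its bases gave -0.05, positive with the percentile over bright probes.
Irs1 differed by -0.11 (-0.66 to 0.43), with WT replicate 1 the highest of the 6 arrays, and by 0.13 without that array. Irs2 differed by -0.07 (-0.42 to 0.29), with overlap.
Akt1 differed by 0.01 (-0.30 to 0.32), a sign that turned in the deposited table. The overlapping probes of Akt2 gave -0.14 and -0.08, the latter turning under both quantile scalings, and its other probes 0.15 and 0.13. Pdpk1 was at -0.12 (-0.43 to 0.18), with its other probes at 0.01, negative in the deposited table, and -0.17. Leaving out 1 array gave -0.23 to -0.07 for its brightest probe and -0.23 to -0.10 for the third. For Akt2 it gave -0.21 to -0.05 on the brightest probe, 0.07 to 0.28 on the third and 0.04 to 0.20 on the fourth.

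In the lists, 0 of 72 tested genes passed in limma and 4 had an unadjusted p under 0.05, against 6.79% of all tested probes. Their median was -0.06, with 26 higher and 46 lower in Fgf5-/-. The medians were -0.01 for 8 PI3K subunits, -0.01 for 12 adaptors and receptors, -0.07 for 10 phosphatases and other brakes, -0.17 for 4 paralogs, 0.01 for 18 AKT substrates and mTOR genes and -0.08 for 25 FOXO targets, Irs2 included. The lowest differences were those of Cdkn1a (-0.78), a cell cycle inhibitor, Lhx1 (-0.58), Eif4ebp1 (-0.48), an mTOR substrate, and the AKT substrate Gsk3b (-0.41, with its 3 probes from -0.41 to -0.07). Of these 4, all but Lhx1 had the Fgf5-/- arrays entirely below the WT arrays, and all had an adjusted p of 0.728 in limma. Of the 72 genes, 8 had all Fgf5-/- arrays below all WT arrays and 1, Mlst8, above. Over all tested probes, these shares were 9.2% and 7.01%. Eif4ebp1 rested largely on Fgf5-/- replicate 1 and was at -0.26 without it. The highest were Insr (0.38, with another probe at -0.26), Gab1 (0.16), Mlst8 (0.16) and Rps6kb2 (0.16). Leaving out 1 array took them to 0.20, 0.07, 0.10 and 0.03 at the lowest, and the mean of its probes put Insr at 0.08.
The brightest probes of Foxo6 (-0.22) and Bcl2l11 (-0.28) were also among the 8 of 72 with all Fgf5-/- arrays below all WT arrays. The share over all tested probes was 9.2%, and a second probe of Bcl2l11 gave 0.18. Without Fgf5-/- replicate 1, Bcl2l11 was at -0.10. The differences were -0.08 for Pik3ca, 0.04 for Pik3r1 and -0.02 for Igf1r. Mtor and Tsc2 were at 0.11 and 0.13. Pik3ip1 was at 0.0044, with its other probe at 0.38, and Trib3 at -0.11, and Cdkn1b was at -0.10 with another probe at 0.13. Ret and Gfra1 were at 0.02 and -0.15. Signs that turned under another scaling were those of Igf1r under 3, Ret and Tsc2 under normexp, and Pik3ip1 in the deposited table.

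The third comparison sets the level in the 4 cultured samples against that in the 6 sorted ones. Each material was on a slide of its own, so slide and material cannot be told apart, and the tests describe these arrays. Most of the array differed: 67.7% of 35823 tested probes had an adjusted p under 0.05 in limma, 41.9% higher in culture and 25.7% lower. Of the 16 member probes, 9 did, or 56.3%, with 3 higher (18.8%) and 6 lower (37.5%). On 5 of the 16, all cultured arrays lay below all sorted ones, and on 1 above. The share of all probes separated in this way was not computed, so separate ranges below cannot be read as particular to these genes. The median over all probes was 0.26 higher in culture. It was 0.14 with quantile normalization, 0.09 with normexp, 0.21 in the deposited table and 0.41 with the percentile taken over bright probes, so the differences of the members are also given relative to the median of 0.26, and those of other genes without this subtraction. The median of the members was -0.24.
Foxo3 had the largest difference. It stood at 0.30, -0.05, 0.40 and 0.35 in culture, and in sorted cells between 1.76 and 2.21. All cultured arrays lay more than 1 log2 unit below all sorted ones. Its signal was 3.40-fold higher in sorted cells, a log2 difference of -1.77 (95% interval -2.06 to -1.47, adjusted p = 1.29e-05 in limma) and of -2.02 relative to the median. The second probe, however, was higher in culture by 0.59 (0.11 to 1.07, adjusted p = 0.0338), or 0.33 relative to the median, with overlapping arrays. With the mean of both probes the difference of Foxo3 was only -0.59. The call of the second probe was lost with quantile normalization (adjusted p = 0.278), with normexp (adjusted p = 0.133), with no filter on dim probes, with either culture group against WT alone and without any 1 of 7 arrays, while the sign stayed opposite to that of the brightest probe.
The receptor substrates were lower in culture. Irs2 stood at 1.91, 1.41, 1.86 and 1.79 in culture and between 2.20 and 2.65 in sorted cells. The materials did not overlap, and the difference was -0.61 (95% interval -0.93 to -0.30, adjusted p = 0.00432 in limma) and -0.87 relative to the median. Irs1 stood at -3.08, -2.55, -3.02 and -3.48 in culture and between -2.56 and -1.78 in sorted cells. The culture with FGF5 numbered 2 reached the sorted range, and the difference was -0.70 (-1.16 to -0.25, adjusted p = 0.0125) and -0.96 relative to the median. That call was lost without the array with FGF5 numbered 1 (adjusted p = 0.0550) or the one without FGF5 numbered 2 (adjusted p = 0.0536). It was also lost for the cultures with FGF5 against WT alone (adjusted p = 0.190) and with the mean of both probes (adjusted p = 0.155). The second probe was well above background on 0 of 10 arrays, so that mean cannot decide the call.
Akt1 was the only member whose brightest probe was called higher in culture. It stood at 4.56, 4.19, 4.66 and 4.36 there and between 3.86 and 4.17 in sorted cells. The materials were separate by a narrow margin, with a difference of 0.43 (95% interval 0.14 to 0.72, adjusted p = 0.0156 in limma) and of 0.17 relative to the median. The call was lost without the array with FGF5 numbered 1 (adjusted p = 0.0644) or the one without FGF5 numbered 1 (adjusted p = 0.0659), and against WT alone for the cultures with FGF5 (adjusted p = 0.142) and without it (adjusted p = 0.0512).
The brightest probe of Akt2 stood at 3.83, 3.91, 3.91 and 3.90 in culture and between 3.91 and 4.41 in sorted cells. All but 1 sorted array, Fgf5-/- replicate 1, lay above the cultures. The difference of -0.28, or -0.54 relative to the median, had an adjusted p of 0.0463 in limma. It lost the call under 3 of the other scalings, with the mean of the gene's probes, with no filter on dim probes, with the replicate number as a block (adjusted p = 0.0994), with either culture group against WT alone and without any 1 array other than Fgf5-/- replicate 1. The probe that shares 53 of its bases gave -0.26, or -0.52 relative to the median, and was called only in the deposited table (adjusted p = 0.0341), with a trend in eBayes (adjusted p = 0.0359) and without Fgf5-/- replicate 1 (adjusted p = 0.0290). The one in the coding sequence gave 0.30 (adjusted p = 0.0460), which is 0.04 relative to the median. Its call was lost with the block (adjusted p = 0.0610), in the deposited table, with no filter on dim probes, with either culture group against WT alone and without any of 8 arrays. The fourth gave 0.09, or -0.17 relative to the median, negative with quantile normalization and with normexp.
Pdpk1 was lower in culture on each of its probes, by unequal amounts. Its brightest probe stood at 1.97, 1.98, 1.98 and 1.997 in culture and between 2.01 and 2.33 in sorted cells. The difference of -0.20 (95% interval -0.43 to 0.02, adjusted p = 0.0987 in limma) was -0.46 relative to the median. It turned to 0.01 under normexp, and passed in the deposited table (adjusted p = 0.0454) and, as the mean of all 3 probes, at -0.63 (adjusted p = 0.000238). The probe in the coding sequence stood at -0.01, 0.01, -0.06 and 0.02 in culture and between 0.88 and 1.02 in sorted cells. These were separate ranges, with a difference of -0.97 (-1.16 to -0.78, adjusted p = 2.7e-05) and of -1.23 relative to the median. The third probe gave -0.72 (adjusted p = 0.000343), or -0.98 relative to the median, likewise without overlap.
Foxo1 was not called on either probe, with differences of 0.14 (95% interval -0.08 to 0.35) and -0.21 (-0.43 to 0.0014), which are -0.12 and -0.47 relative to the median. The former passed with quantile normalization (0.31, adjusted p = 0.0107), with normexp and with the percentile over bright probes, and turned negative with the mean of both probes. The latter passed in the deposited table (adjusted p = 0.0359), with a trend in eBayes (adjusted p = 0.0448), for the cultures with FGF5 against WT alone (adjusted p = 0.0370) and without Fgf5-/- replicate 1 (adjusted p = 0.0240). Foxo4 gave -0.59 and -0.06, or -0.85 and -0.32 relative to the median, neither of them called, though both passed with quantile normalization and with normexp, and the sign of the latter turned when the percentile was taken over bright probes.

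Pairs of probes of one gene, chosen after the values were seen, were compared by how far their differences between the materials lay apart. Of 11 pairs with both probes well above background on all 10 arrays, 5 had a within-array difference whose ranges in culture and in sorted cells were separate. That is 45.5%, against 42.7% of 6400 such pairs over all genes. The distance was -2.35 for Foxo3, 0.35 for Foxo1, 0.77 and 0.51 for the brightest probe of Pdpk1 against its second and the third, and -0.56 for the second probe of Akt2 against the one in the coding sequence. The overlapping probes of Akt2 differed by only -0.02, and their ranges overlapped. Such values show unequal change of what the probes detect, and cannot tell a change of transcript form from one of the slide.

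**Figure D4:**
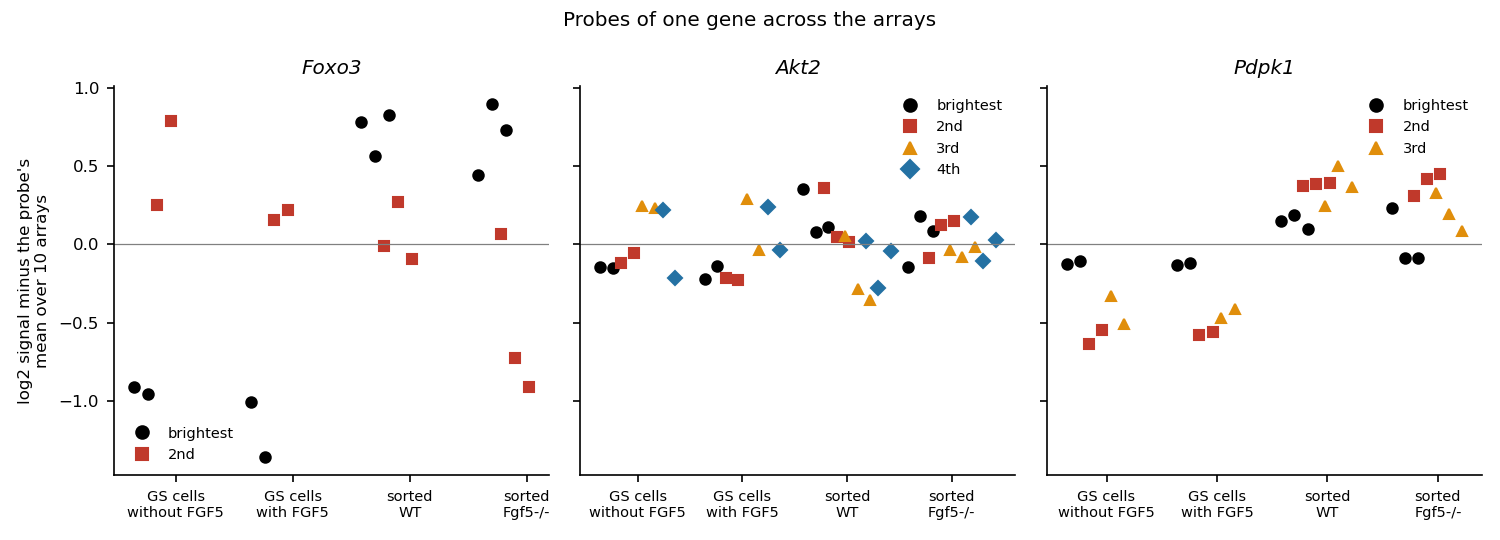
Log2 signal of each probe of Foxo3, Akt2 and Pdpk1 on each array, minus that probe's mean over the 10 arrays, so that changes and not levels can be compared. Points are arrays, and shapes mark probes in order of mean signal. The probes of Foxo3 moved in opposite directions between cultured and sorted cells, and those of Pdpk1 in the same direction by unequal amounts.

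Over the 4 groups, the order of mean levels differed between the genes. The brightest probes of Foxo3, Foxo4, Irs1, Irs2, Akt2 and Pdpk1 had both sorted groups above both cultured ones, at 2.03 ± 0.14 (SD, n = 3) in WT, 2.0 ± 0.23 (SD, n = 3) in Fgf5-/-, 0.38 ± 0.03 (SD, n = 2) without FGF5 and 0.13 ± 0.25 (SD, n = 2) with it for Foxo3. For Foxo3, only the step from Fgf5-/- to GS cells exceeded the spread between arrays. The second probe of Foxo3 had both cultured groups above both sorted ones, at -2.20 without FGF5, -2.53 with it, -2.67 in WT and -3.24 in Fgf5-/-. The brightest probe of Foxo1 ran from 5.14 ± 0.07 (SD, n = 2) without FGF5 through 5.0 ± 0.09 (SD, n = 3) in WT and 4.91 ± 0.0024 (SD, n = 2) with FGF5 to 4.78 ± 0.13 (SD, n = 3) in Fgf5-/-. Its neighbors in this order differed by about the spread between arrays. The second probe gave another order, with 5.06 in WT, 4.88 in Fgf5-/-, 4.87 without FGF5 and 4.65 with it. Akt1 had GS cells without FGF5 highest, at 4.51 ± 0.22 (SD, n = 2), and WT lowest, at 4.01 ± 0.16 (SD, n = 3), next to Fgf5-/- at 4.02 ± 0.12 (SD, n = 3).
The genes whose profile over the 10 arrays was closest were found for the 7 members whose brightest probe was above background on all of them. By root mean square difference of centered log2 values, they were Was (0.090), Pnoc (0.10) and Pdxdc1 (0.11) for Foxo3, against a median of 0.88 over 20239 candidate probes. For Foxo1 they were Whsc2 (0.065), Taf15 and Dhdds, for Irs2 Dnmt3b (0.068), Ina and C130081A10Rik, and for Irs1 Pald1 (0.17), Osbpl5 and Arhgap20. For Akt1 they were Lman1 (0.057), Tmeff1 and Rab34, for Akt2 Gm15455 (0.040), Rpia and Ccnk, and for Pdpk1 Uso1 (0.030) and R3hdm2.

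Of the pathway lists, 49 of 75 tested genes (65.3%) were called between the materials in limma, 17 higher in culture (22.7%) and 32 lower (42.7%). Over all tested probes, 67.7% were called, 41.9% higher and 25.7% lower. The median of the lists was -0.26. For PI3K subunits, 1 of 9 was called higher and 4 lower. Pik3r1, which encodes the main regulatory subunit, was lower in culture by 2.83 (adjusted p = 5.36e-07; 4 of 4 arrays below all sorted ones), and Pik3ca by 0.62 (adjusted p = 0.00172), a call that was lost for the cultures with FGF5 against WT alone.
Of 13 adaptors and receptors, 5 were called in each direction. Insr was higher by 1.20 on its brightest probe (0.35 with normexp) and on all 3, and Ret, the signaling partner of GFRα1, differed by -2.11 (-2.82 to -1.37 with either culture group against WT alone). Igf1r was at 0.08. Of 10 phosphatases and other brakes, 2 were higher and 5 lower. Inpp5d was lower in culture, where its probe was well above background on 1 of 4 arrays, so that only a bound on its difference can be given. Inpp4a differed by 1.48. Trib3 differed by 0.45, called only under other settings, and Pik3ip1, an inhibitor of PI3K, by -1.25.
Of the 4 paralogs, 1 was called higher and 2 lower, among the latter Foxo6, which was lower on both probes (-1.48 and -1.58). Of 18 AKT substrates and mTOR genes, 3 were higher and 8 lower. Tsc2 differed by -0.98. Gsk3b differed by 0.25 (0.04 to 0.47 when 1 array was left out) and Mtor by 0.12 (0.07 to 0.18), neither called on its brightest probe. Of their other probes, 1 of each was called. The probes of Gsk3b ran from -0.19 to 1.30, and the other probe of Mtor gave -0.53. Of 26 FOXO targets, Irs2 included, 6 were higher and 11 lower, with Bcl2l11, which encodes a protein that promotes cell death, at -1.50, Cdkn1b at -0.38 and Bcl6 at 1.35. Pck1 was higher, with 3 of 6 sorted arrays above background, so that its difference is a bound too. Lhx1 was at -2.82 (-1.33 on its other probe), and its brightest probe between -4.67 and -1.56 with either culture group against WT alone, without a call for the cultures with FGF5. The call of Cdkn1b was lost under 3 of the other scalings, with either culture group against WT alone and without any 1 of 8 arrays. The lists share Insr, Ret, Pik3ip1 and Rictor with one another, and Irs2 with the members.

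**Figure D5:**
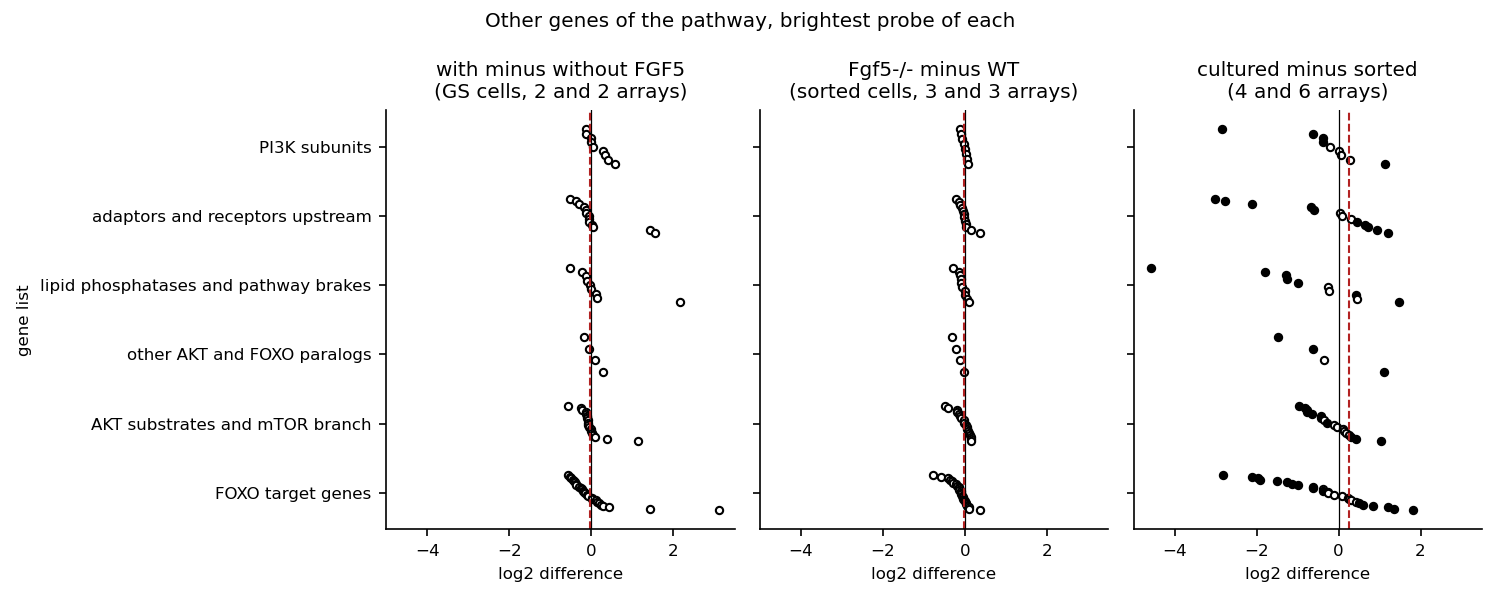
Log2 differences of the other genes of the pathway by list, each read from its brightest probe, in the 3 comparisons. Points are genes, filled where the adjusted p was under 0.05, and the dashed line is the median over all tested probes. Filled points appear only between cultured and sorted cells, where 32 of the 75 genes were called lower in culture and 17 higher. Over all tested probes, 25.7% were called lower and 41.9% higher.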

How the data were processed

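For each array, the authors deposited spot values from the scanner, among them the background-subtracted intensity (Feature Extraction, version 10.7.1.1 per the file headers and 10.7.3.1 per the labels), and a table of log2 values shifted to the 75th percentile in GeneSpring. Against the recomputed values, this table was offset by 1 constant per array, 0.13 to 0.20, and its column medians ran from -3.74 to -3.10.
Intensities were floored at 1, logged, and reduced by the 75th percentile of the 59305 non-control spots. That percentile was 575 to 650 in culture and 794 to 1091 in sorted cells, and 55.3% to 65.9% of probes were well above background per array. Uneven and outlier spots (117 to 205 per array) were left out, spots of a probe averaged, and 0 spots were saturated.
A probe was tested if, in at least 1 group, all arrays had it well above background. A probe printed on several spots counted as such when the majority of its retained spots did. This majority rule was chosen after tested counts under it and under a rule asking for every spot had been seen, because it gave the counts of an earlier analysis of these files. The stricter rule is reported as an alternative.
Each comparison was fitted in R 4.3.3 with limma 3.58.1 (lmFit and eBayes, two-sided, Benjamini-Hochberg over all tested probes, threshold 0.05) and version 1.17.8 of data.table, and the procedure was tested on simulated data. The cultured and sorted experiments were fitted apart, and all 10 arrays in 4 groups for the comparison of materials. The number of arrays limits the precision. Named besides the 8 members were 14 of 16 fixed genes of the pathway, with the others counted but not named, and, per comparison, the 4 highest and 4 lowest of its lists. The members and lists were chosen with earlier results of these data known. Alternatives were quantile normalization, normexp (offset 50; on mean signals in culture, and on median signals where sorted arrays enter, whose files hold no mean signal), the deposited table, the percentile over bright probes, a floor of 16, flagged spots kept, all probes tested or only those above background throughout, a variance trend with intensity, the mean of a gene's probes, each array left out, the replicate number as a block, and each culture group against WT alone.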

Additional observations from a re-analysis of the deposited data

How the results depend on the processing

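No alternative gave a probe with an adjusted p under 0.05 in limma for FGF5 in GS cells, where 387 to 2481 had an unadjusted p under 0.05. For the Fgf5 genotype the count stayed at 0, and leaving out 1 array gave 0 to 6. Between the materials 16286 to 25419 probes or genes were called. Among members, the calls of the brightest probe of Foxo3, of Irs2 and of the second and the third probe of Pdpk1 held under every alternative that gave them a value. The mean of a gene's probes gave none for the probes of Pdpk1 other than its brightest, and took Foxo3 from -1.77 to -0.59. Of the other 5 called probes of members, each lost its call under at least 1 alternative. Both probes of Foxo1, both of Foxo4, the second of Akt2 and the brightest of Pdpk1 gained one under at least 1. The rule that every spot of a probe be well above background, chosen after seeing the data, gave 34589, 30269 and 35805 tested probes and 0, 0 and 24225 calls. With the replicate number as a block, 0, 0 and 24018 probes were called, without those of Akt2, and the labels do not say whether equal numbers were processed together. The dim probes of Foxo4 and Irs1 are limited by their signal over background. The mean of a gene's probes takes in the second probe of Irs1 and the third of Foxo4, well above background on 0 and 2 arrays.
With normexp, the reversed log2 differences by FGF5 were Pdpk1 (second probe) -0.00801.
With the mean of a gene's probes, the reversed log2 differences by FGF5 were Gsk3b 0.035.
With quantile normalization, the reversed log2 differences by genotype were Akt2 (second probe) 0.032, Foxo3 0.016 and Igf1r 0.041.
With normexp, the reversed log2 differences by genotype were Akt2 (second probe) 0.0498, Foxo3 0.0401, Tsc2 -0.0298, Ret -0.072 and Igf1r 0.12.
In the deposited table, the reversed log2 differences by genotype were Pdpk1 (second probe) -0.0042, Akt1 -0.00044 and Pik3ip1 -0.0068.
With the percentile over bright probes, the reversed log2 differences by genotype were Foxo3 0.028, Foxo4 (second probe) 0.014 and Igf1r 0.038.
With the mean of a gene's probes, the reversed log2 differences by genotype were Akt2 0.016 and Cdkn1b 0.014.
With quantile normalization, the reversed log2 differences between materials were Akt2 (the fourth probe) -0.21.
With normexp, the reversed log2 differences between materials were Pdpk1 0.014 and Akt2 (the fourth probe) -0.22.
With the percentile over bright probes, the reversed log2 differences between materials were Foxo4 (second probe) 0.0902.
With the mean of a gene's probes, the reversed log2 differences between materials were Foxo1 -0.038 and Mtor -0.21.
With the cultures with FGF5 against WT alone, the reversed log2 differences between materials were Foxo1 -0.094, Gsk3b -0.017 and Igf1r -0.071.
Leaving out 1 array gave, by FGF5, Akt2 -0.077 to 0.0062, Foxo4 (second probe) -0.022 to 0.30, Pdpk1 (the third probe) -0.11 to 0.069, Akt2 (the fourth probe) -0.12 to 0.31, Pik3ip1 -0.60 to 0.16, Akt1 -0.33 to 0.052, Akt2 (the third probe) -0.27 to 0.055, Irs2 -0.42 to 0.083, Ddit4 -1.25 to 0.15, Gsk3b -0.57 to 0.31, Mtor -0.17 to 0.044, Bcl2l11 -0.43 to 0.48, Igf1r -0.58 to 0.0089 and Pdpk1 (second probe) -0.023 to 0.065.
Leaving out 1 array gave, by genotype, Irs1 -0.25 to 0.13, Akt2 (second probe) -0.14 to 0.031, Foxo4 (second probe) -0.34 to 0.11, Irs2 -0.15 to 0.062, Pik3ip1 -0.048 to 0.0701, Ret -0.0396 to 0.062, Pik3r1 -0.058 to 0.10, Igf1r -0.053 to 0.029, Akt1 -0.065 to 0.093, Foxo3 -0.14 to 0.091, Tsc2 -0.038 to 0.24 and Pdpk1 (second probe) -0.021 to 0.048.
Leaving out 1 array gave, between materials, Igf1r -0.065 to 0.23, Foxo4 (second probe) -0.14 to 0.087 and Akt2 (the fourth probe) -0.022 to 0.19. The cause was not tested for any reversal.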
